A study of Mus musculus with 4 samples.

Results

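A set of 10 genes was followed here by name: 5 markers by which fibroblasts are recognised (Thy1, S100a4, Fap, Ddr2 and Cd44) and 5 transcription factors of mesenchyme (Prrx1, Prrx2, Twist1, Twist2 and Tcf21). They were taken by gene symbol from a table of 116415 RefSeq transcripts of mouse embryonic fibroblasts (MEFs), with the counts of all transcripts of a symbol summed. All 10 were among the 36846 symbols of the table, and 9 passed the filter on low counts; Tcf21 did not. RNA was sequenced from wild-type MEF lines (WT, 2 libraries) and from Dnmt3l-knockout lines (Dnmt3l-KO, 2 libraries). The protein made by Dnmt3l cannot methylate DNA itself, and stimulates the enzymes that place new methylation. All lines were C57BL/6 cells at passage 4, grown in DMEM with serum, and came from embryos of day 13.5 to 14.5 of intercrosses between Dnmt3l heterozygotes. The comparison answers which genes differ between fibroblasts that the study used as donors for nuclear transfer. Whether both libraries of one genotype stand for different embryos is not stated in the labels, so a p-value here measures only how far these libraries spread, and that spread may be technical.

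Fibroblasts have no marker of their own that every fibroblast carries and no other cell does, so they are recognised by combinations. Thy1 (CD90) is a surface glycoprotein anchored in the membrane by a lipid, Cd44 is the main hyaluronan receptor, Ddr2 is a receptor tyrosine kinase that binds fibrillar collagen, Fap is a membrane-bound serine protease best known from activated fibroblasts, and S100a4 (FSP1) is a small calcium-binding protein that acts on non-muscle myosin. Prrx1 and Prrx2 are paired-type homeodomain factors of limb and craniofacial mesenchyme. Twist1 and Twist2 are basic helix-loop-helix (bHLH) factors that bind DNA with E-protein partners and hold mesenchymal cells in an undifferentiated state, and Tcf21 is a bHLH factor of visceral and epicardial mesenchyme.

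Total counts ranged from 40681328 to 51465395 per library. Dnmt3l itself had 6 and 1 counts in the WT libraries and 0 in both Dnmt3l-KO libraries, which is too few to check the labels. In edgeR's quasi-likelihood test, 3 of 14760 genes (0.0203%) passed between the genotypes at an adjusted p below 0.05, and 612 (4.15%) had an unadjusted p below 0.05. That second count fell when either WT library was left out and rose when either Dnmt3l-KO library was. A fit without a library takes its spread from the pair of the other genotype alone, so these shifts do not show what the count rests on. In the fit of all 4 libraries, none of the 10 genes was among the 3 or the 612. The count was 0 of 9 tested at either level, and also 0 in DESeq2's Wald test and in limma-voom, each with 0 at an unadjusted p below 0.05. Their median log2 fold change, Dnmt3l-KO minus WT, was 0.03, beside 0.01 over all genes tested.

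The 10 genes covered a wide range of levels. On the length-scaled FPKM values (fragments per kilobase of transcript, scaled to the number of fragments, summed over the transcripts of a gene), S100a4 was the most abundant, with a mean of 2167 FPKM over the 4 libraries, rank 17 of the 21138 symbols with a count. Cd44 followed at 195 FPKM. Prrx1 (78.9 FPKM), Prrx2 (77.9 FPKM) and Thy1 (75.9 FPKM) formed a group whose ranges over the libraries overlapped. Ddr2 was at 34.9 FPKM, and Twist2 (20.5 FPKM) and Twist1 (19.5 FPKM) again overlapped. Fap stood far below them at 0.819 FPKM, which was rank 11538. Tcf21 was last at 0.0199 FPKM. Neighbours in this order other than Prrx1 with Prrx2, Prrx2 with Thy1 and Twist2 with Twist1 did not overlap in any library. Of 18 other fibroblast markers looked at, Vim (2165 FPKM), the mesenchymal intermediate filament gene, and the type I collagen genes Col1a1 (817 FPKM) and Col1a2 (494 FPKM) were the most abundant. Others of that list were low, with Pdgfra at 5.06, Dcn at 2.68, Lum at 1.53, Cd34 at 1.35, Dpt at 0.393 and Dpp4 at 0.156 FPKM, and Pi16 had 0 counts in every library. By mean FPKM, 45.4% of the symbols with a count stood at or below Fap and 15.99% at or below Tcf21.

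**Figure D1:**
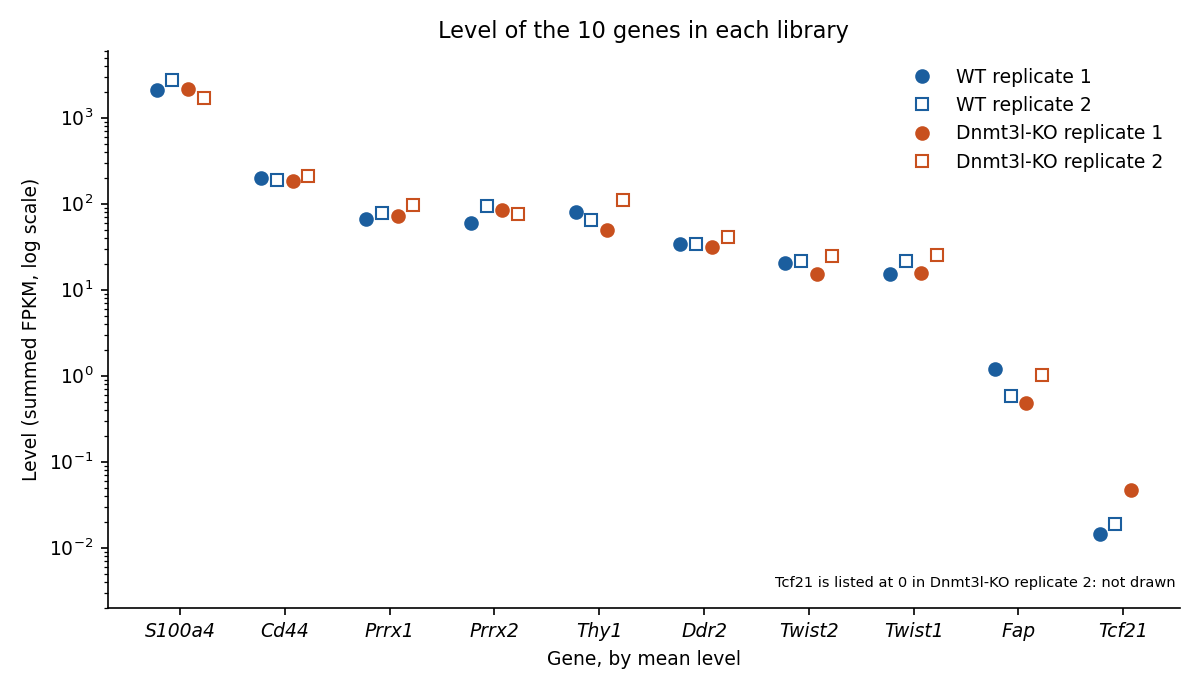
Level of each gene in each of the 4 libraries, as FPKM summed over its transcripts on a log scale, ordered by mean level; filled symbols are replicate 1, open symbols replicate 2, blue WT and orange Dnmt3l-KO. S100a4 lies between 1682 and 2724 FPKM, 7 genes lie between 15.4 and 208 FPKM, and Fap and Tcf21 lie far below them.

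S100a4 (chromosome 3, 90603770 to 90606045, GRCm38) was the only gene of the 10 whose genotypes did not overlap on CPM. CPM are counts scaled by edgeR's TMM library sizes, for comparing libraries within a gene. S100a4 had 1267 and 1487 CPM in WT and 1212 and 913 CPM in Dnmt3l-KO. On FPKM the genotypes overlapped, with 2121 and 2724 in WT and 2140 and 1682 in Dnmt3l-KO. On CPM both Dnmt3l-KO libraries were below both WT libraries, which was true of 16.5% of all genes tested. In either direction, 32.8% were apart. Dnmt3l-KO replicate 1 lay close to WT replicate 1, and Dnmt3l-KO replicate 2 was the low one. The log2 fold change was -0.37 ± 0.18 (SE; 95% interval -0.84 to 0.09), with an unadjusted p of 0.0929 and an adjusted p of 0.999 in edgeR. Without Dnmt3l-KO replicate 2 the log2 fold change was -0.19, and without Dnmt3l-KO replicate 1 it was -0.59 (edgeR, unadjusted p = 0.00654, adjusted p = 0.315), in the fit where 1817 of 15125 genes had an unadjusted p below 0.05. In GENCODE, 302 of the 584 exonic bases of S100a4 also belong to Gm42674 on the same strand, so reads from these bases could come from either.

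Thy1 (chromosome 9, 44043384 to 44048579) differed more within each genotype than between them. It had 164 and 119 CPM in WT and 95.4 and 204.5 CPM in Dnmt3l-KO, so the Dnmt3l-KO libraries were the lowest and the highest of the 4. The WT mean was 141 ± 31.7 CPM and the Dnmt3l-KO mean 150 ± 77.2 CPM (SD, n = 2 each), giving a log2 fold change of 0.08 ± 0.39 (SE; 95% interval -0.92 to 1.09; edgeR, adjusted p = 0.999). The highest library was 2.14 times the lowest, a range that 12.4% of all genes tested reached. Which library was left out set the sign: the log2 fold change was -0.57 without Dnmt3l-KO replicate 2, 0.53 when Dnmt3l-KO replicate 1 was left out instead, and -0.13 when WT replicate 2 was, with none of the 3 called. In bulk RNA, fewer cells that express a gene and less of its RNA per cell cannot be told apart.

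Fap (chromosome 2, 62500936 to 62575509) was high in the same libraries as Thy1, at a far lower level. Its counts were 175 and 70 in WT and 72 and 122 in Dnmt3l-KO, or 3.72 and 1.68 CPM and 1.44 and 2.92 CPM. WT replicate 1 and Dnmt3l-KO replicate 2 were the high libraries. Its log2 fold change was -0.31 ± 0.53 (SE; adjusted p = 0.999 in edgeR). The 95% interval, from -1.70 to 1.07, was the widest of the 9. The sign turned when WT replicate 1 (0.37) or Dnmt3l-KO replicate 1 (0.11) was left out.

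Cd44 and Ddr2 were the steadiest of the surface markers. Cd44 (chromosome 2, 102811141 to 102901669) had 1036 and 881 CPM in WT and 892 and 974 CPM in Dnmt3l-KO, so the ranges overlapped, and its log2 fold change was -0.04 ± 0.13 (SE; adjusted p = 0.999 in edgeR). The 95% interval, from -0.38 to 0.30, corresponds to 0.771 to 1.23 times the WT level. Ddr2 (chromosome 1, 169972307 to 170110836) had 319 and 291 CPM in WT and 285 and 351 CPM in Dnmt3l-KO, again overlapping, with a log2 fold change of 0.06 ± 0.14 (SE; 95% interval -0.30 to 0.41; edgeR, adjusted p = 0.999), or 0.815 to 1.33 times WT. Both log2 fold changes were so small that their signs turned with a library left out, Cd44 to 0.082 when WT replicate 1 was left out and 0.021 when Dnmt3l-KO replicate 1 was, and Ddr2 to -0.10 when Dnmt3l-KO replicate 2 was left out and -0.0044 when WT replicate 2 was.

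Among the transcription factors, Prrx1 (chromosome 1, 163245119 to 163315145) kept a positive sign under every alternative tried, though with 1 library behind most of it. It had 373 and 393 CPM in WT and 383 and 487 CPM in Dnmt3l-KO, with Dnmt3l-KO replicate 2 above the other libraries and Dnmt3l-KO replicate 1 between the WT libraries. The log2 fold change was 0.18 ± 0.15 (SE; 95% interval -0.19 to 0.56; edgeR, adjusted p = 0.999), and 0.00067 without Dnmt3l-KO replicate 2. Without Dnmt3l-KO replicate 1 it was 0.35 (edgeR, unadjusted p = 0.0129, adjusted p = 0.340), again beside 1817 of 15125 genes below 0.05.

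Prrx2 (chromosome 2, 30845064 to 30881251), the paralogue of Prrx1, had 79.7 and 115 CPM in WT and 107 and 91.5 CPM in Dnmt3l-KO. The WT libraries enclosed the Dnmt3l-KO libraries, and the log2 fold change was 0.03 ± 0.20 (SE; 95% interval -0.49 to 0.55; edgeR, adjusted p = 0.999). Its sign turned without WT replicate 1 (-0.21) or Dnmt3l-KO replicate 1 (-0.09). On FPKM the ratio of Prrx1 to Prrx2 was 1.14 and 0.834 in WT and 0.869 and 1.30 in Dnmt3l-KO, so which of the paralogues was the more abundant differed between libraries of one genotype.

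Twist1 (chromosome 12, 33957671 to 33959831) had 29.8 and 37.7 CPM in WT and 29.1 and 45.1 CPM in Dnmt3l-KO, with replicate 2 the higher in both genotypes. The log2 fold change was 0.13 ± 0.25 (SE; 95% interval -0.50 to 0.77; edgeR, adjusted p = 0.999), and it turned to -0.22 when Dnmt3l-KO replicate 2 was left out and to -0.03 when WT replicate 1 was. Twist2 (chromosome 1, 91801461 to 91848034) had 31.3 and 30.2 CPM in WT, a close pair, and 22.3 and 33.9 CPM in Dnmt3l-KO, on either side of it. Its log2 fold change was -0.13 ± 0.21 (SE; 95% interval -0.69 to 0.42; edgeR, adjusted p = 0.999), with -0.47 without Dnmt3l-KO replicate 2 (edgeR, unadjusted p = 0.00842, adjusted p = 0.261, in a fit with 2042 of 15339 genes below 0.05 unadjusted) and 0.14 without Dnmt3l-KO replicate 1. The FPKM ratio of Twist1 to Twist2 was 0.748 and 0.984 in WT and 1.03 and 1.05 in Dnmt3l-KO. This ratio was not tested. In GENCODE, 1477 of 3174 exonic bases of Twist2 overlap Gm29100 on the opposite strand. The sources do not say that strand was used in counting, so reads of the pair cannot be told apart.

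The paralogue pairs are similar in sequence, and the stretches below show how much of it is identical, since reads from identical stretches cannot be assigned. Over aligned coding sequence (GENCODE M21, GRCm38), Twist1 and Twist2 were 87.7% identical over 316 bases, and Prrx1 and Prrx2 79.9% over 204 bases. The longest run without a mismatch between the coding sequences, printed in lower case throughout, was 23 bases for the Twist genes and 19 bases for the Prrx genes. The first lies at chr12:33958380-33958402 in Twist1 and chr1:91801891-91801913 in Twist2, both on the plus strand. The second lies at chr1:163248325-163248343 in Prrx1, on the minus strand, and chr2:30880845-30880863 in Prrx2, on the plus strand.
Twist1 and Twist2 shared run: ctgcgcaagatcatccccacgct
Prrx1 and Prrx2 shared run: tcaacatggccaacagcat
The labels give no read length. Within the coding sequence, a read longer than these runs holds at least 1 base that differs between the paralogues. Fap was 72.3% identical to its family member Dpp4 over 430 bases, and Ddr2 74.1% to Ddr1 over 459 bases. Tcf21 was 79.8% identical to the bHLH gene Msc over 238 bases. Thy1 and Cd44 had no match in another gene.

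Tcf21 (chromosome 10, 22817263 to 22820143) was at the limit of detection in both genotypes. It had 1 count in each WT library, and 3 and 0 counts in Dnmt3l-KO. Summed over a genotype this was 0.0225 CPM in WT (2 counts, exact Poisson 95% interval 0.00273 to 0.0813 CPM) and 0.0327 CPM in Dnmt3l-KO (3 counts, 0.00674 to 0.0956 CPM). The intervals cover counting error only and overlap. In every library the gene was at or under 3 counts, the floor used here. A fold change is therefore left out, and a difference was not detectable at this depth.

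Since Dnmt3l acts on DNA methylation, which falls on CpG dinucleotides, the CpG content of the promoters is shown for 4 of the genes. These are S100a4, whose genotypes did not overlap on CPM, Tcf21, which was hardly detected, and the Twist pair. RefSeq windows (GRCm38.p6) were found for 8 of the 10 genes, all but Thy1 and Fap. The 250 bases before the annotated start are printed 5′ to 3′ on the gene's strand, with each CpG in capitals.
S100a4 promoter, chr3:90603520-90603769, strand +: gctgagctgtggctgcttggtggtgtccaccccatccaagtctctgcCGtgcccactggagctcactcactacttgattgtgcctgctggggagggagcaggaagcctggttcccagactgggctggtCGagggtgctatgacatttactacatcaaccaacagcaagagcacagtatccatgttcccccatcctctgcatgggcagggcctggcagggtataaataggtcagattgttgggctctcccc
Tcf21 promoter, chr10:22820144-22820393, strand -: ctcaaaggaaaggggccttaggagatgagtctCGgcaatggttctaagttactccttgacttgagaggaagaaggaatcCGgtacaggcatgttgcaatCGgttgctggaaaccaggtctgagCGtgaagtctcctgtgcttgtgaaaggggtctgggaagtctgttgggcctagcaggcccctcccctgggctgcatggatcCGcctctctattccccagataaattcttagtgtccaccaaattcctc
Twist1 promoter, chr12:33957421-33957670, strand +: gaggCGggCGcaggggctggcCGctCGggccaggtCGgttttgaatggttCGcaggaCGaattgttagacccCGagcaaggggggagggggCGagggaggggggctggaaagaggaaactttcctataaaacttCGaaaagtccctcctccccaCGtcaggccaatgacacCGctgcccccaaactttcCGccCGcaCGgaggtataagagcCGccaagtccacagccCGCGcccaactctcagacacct
Twist2 promoter, chr1:91801211-91801460, strand +: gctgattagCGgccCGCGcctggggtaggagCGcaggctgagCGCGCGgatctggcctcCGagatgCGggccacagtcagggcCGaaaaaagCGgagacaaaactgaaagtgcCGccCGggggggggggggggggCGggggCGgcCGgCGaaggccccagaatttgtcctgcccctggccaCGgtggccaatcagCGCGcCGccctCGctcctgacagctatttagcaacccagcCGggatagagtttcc
The S100a4 window held 2 CpGs, and 81.2% of the 32851 windows of the table held at least as many. Tcf21 held 5, close to the median of 6. Twist1 held 18 and Twist2 held 23, numbers that 21.7% and 13.3% of the windows reached. Of the windows not printed, Prrx2 held 21 CpGs, Cd44 5, Prrx1 4 and Ddr2 1. Each of these belongs to a start inside the annotated gene, for Cd44 by only a few bases. The motif TATAAA, searched on both strands, was present in the windows of S100a4, Twist1 and Ddr2, and in 12.4% of all windows. Methylation was not measured in these data, and the windows are given as a description.

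**Figure D2:**
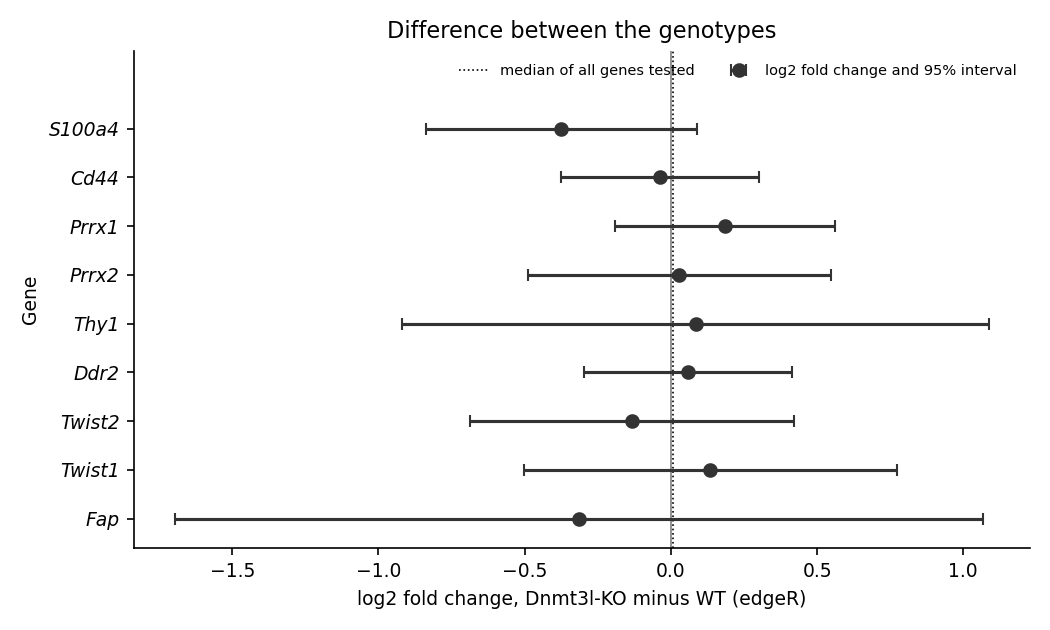
Log2 fold change, Dnmt3l-KO minus WT, of the 9 genes tested, with 95% intervals from edgeR's quasi-likelihood fit; the dotted line marks the median of all 14760 genes tested. Every interval includes 0, from the narrowest for Cd44 (-0.38 to 0.30) to the widest for Fap (-1.70 to 1.07).

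The same RefSeq form had the largest share of the count in every library for Cd44, Prrx1, Ddr2 and Fap. Of 30 transcripts of the 10 genes, 26 could be tested among 39633 transcripts, and edgeR called 0 of them, with 0 at an unadjusted p below 0.05; 1 transcript of the whole table was called. In the authors' deposited table, 25 of the 30 had an adjusted p, the smallest of which was 0.9997. Cd44, whose variant exons can be spliced in or out, was carried by variant 3, with 97.0% and 97.0% of its count in WT and 96.5% and 97.4% in Dnmt3l-KO. Curated variant 1 of Cd44 had 0 counts in every library. Prrx1 was divided among 3 curated forms, with variant 2 at 49.0% and 46.7% of the count in WT and 47.2% and 48.9% in Dnmt3l-KO. Its variant 1 took 34.9% and 34.3% in WT and 35.8% and 32.0% in Dnmt3l-KO. The curated transcript of Ddr2 took 62.9% and 61.2% in WT and 60.1% and 59.0% in Dnmt3l-KO. Shares moved most in Fap: its predicted variant X1 took 43.4% and 0% in WT and 48.6% and 17.2% in Dnmt3l-KO, on totals of 70 to 175 counts. The sources do not say how counts were divided between overlapping transcripts.

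**Figure D3:**
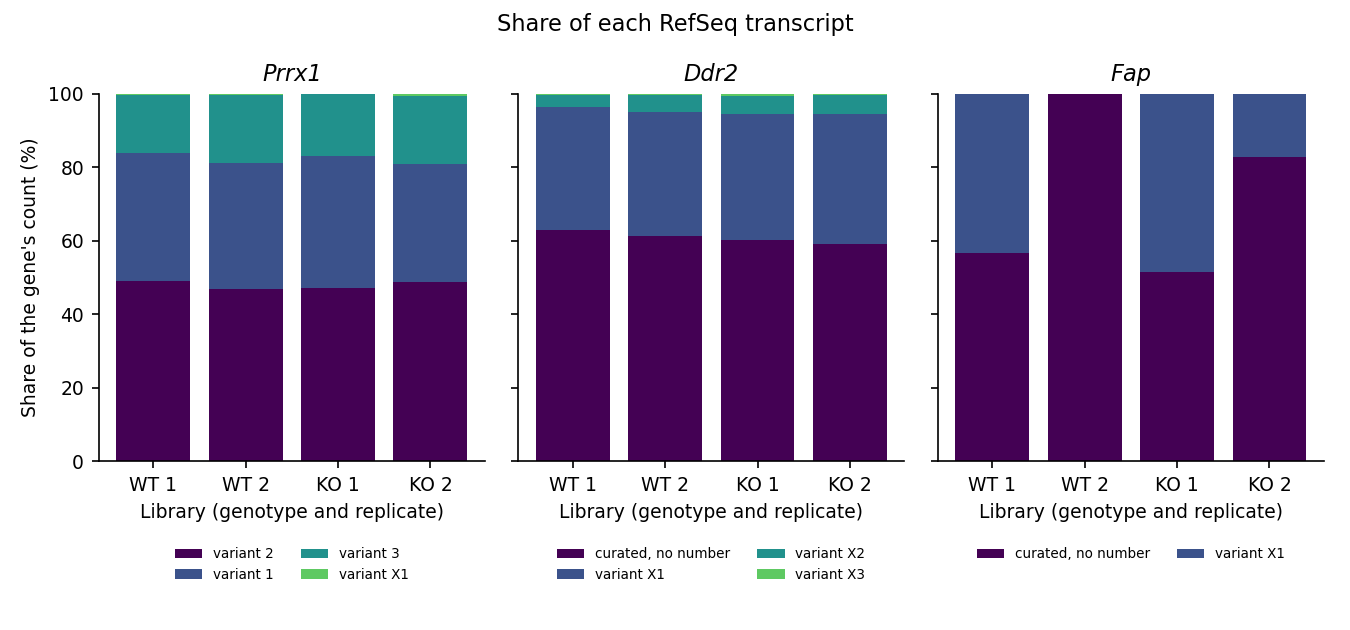
Share of each gene's count that each RefSeq transcript took, in percent, for Prrx1, Ddr2 and Fap in the 4 libraries (WT and KO with the replicate number; KO is Dnmt3l-KO). The shares of Prrx1 and Ddr2 differ by a few percentage points between libraries, whereas variant X1 of Fap ranges from 0% to 48.6%.

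The libraries of a genotype stood apart from each other in several of these genes. All 5 identity markers had opposite differences between replicates in the 2 genotypes. Thy1, Fap, Ddr2 and Cd44 were higher in WT replicate 1 than in WT replicate 2 and higher in Dnmt3l-KO replicate 2 than in Dnmt3l-KO replicate 1, and S100a4 went the other way in both. Taken as replicate 2 minus replicate 1 on the log2 scale, Thy1 differed by -0.46 in WT and by 1.10 in Dnmt3l-KO, and for Fap it was -1.15 and 1.02. A difference at least as large as that of Thy1 in Dnmt3l-KO was seen in 7.32% of all genes, and at least as large as that of Fap in WT in 2.91%. Of the transcription factors, Twist2 went with the first group, Prrx2 with S100a4 (0.53 in WT, -0.22 in Dnmt3l-KO), and Prrx1 and Twist1 were higher in replicate 2 in both genotypes. Over the 9 genes, 7 had opposite signs in the genotypes, against 45.4% of all genes tested. This is a description of 4 libraries, and it was seen after the values were known.

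Several other fibroblast genes showed the same division of the libraries. Of 17 further surface and matrix markers that were tested, 10 were high in WT replicate 1 and Dnmt3l-KO replicate 2, against 23.0% of all genes tested. Another 6 were higher in replicate 2 in both genotypes, and 1 was high in WT replicate 2 and Dnmt3l-KO replicate 1. The type I collagen gene Col1a1 had 4318 and 3403 CPM in WT and 3205 and 5889 CPM in Dnmt3l-KO. Postn, which encodes the matrix protein periostin, had 336 and 188 CPM in WT and 130 and 405 CPM in Dnmt3l-KO, and Lrrc15, a membrane protein of matrix-producing fibroblasts, had 59.0 and 30.5 CPM and 19.8 and 63.6 CPM. In each of these 3 genes the libraries took the order seen in Thy1, with Dnmt3l-KO replicate 1 the lowest and Dnmt3l-KO replicate 2 the highest. The platelet-derived growth factor receptor gene Pdgfra differed from it in WT (23.4 and 38.6 CPM) and had 17.2 and 65.4 CPM in Dnmt3l-KO. Lum, which encodes the matrix proteoglycan lumican, spanned the most, from 0.421 CPM in Dnmt3l-KO replicate 1 to 9.37 CPM in replicate 2. In WT it had 1.19 and 2.54 CPM, so like Pdgfra it was higher in WT replicate 2.

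**Figure D4:**
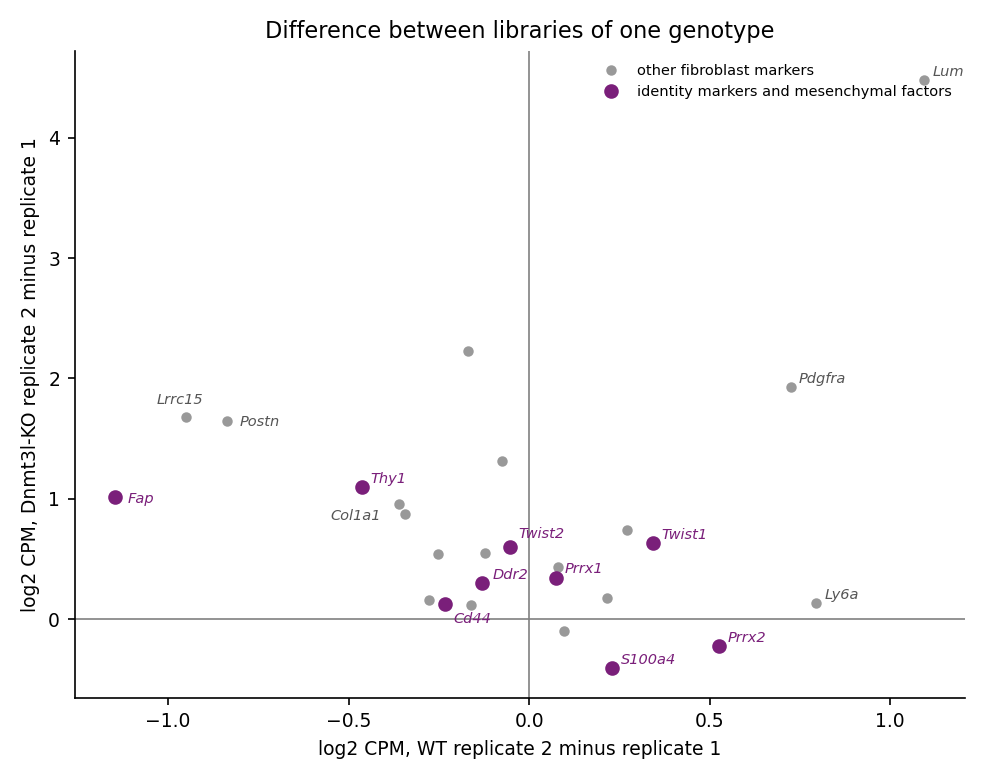
Difference between the 2 libraries of a genotype (log2 CPM, replicate 2 minus replicate 1), WT on the horizontal and Dnmt3l-KO on the vertical axis; purple points are the genes described here, grey points 17 other fibroblast markers. Thy1 and Fap lie to the upper left with Postn, Lrrc15 and Col1a1, and S100a4 and Prrx2 to the lower right.

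Of the other fibroblast markers, 0 of 17 passed in edgeR (0 at an unadjusted p below 0.05). Their log2 fold changes were positive in 14 and negative in 3, with a median of 0.14. Over all genes tested 51.3% were positive, with a median of 0.0062. Most of the 17 lay below the WT mean in Dnmt3l-KO replicate 1, so most of the positive signs rested on Dnmt3l-KO replicate 2. On CPM 3 were apart upward and 0 downward, against 16.2% and 16.5% of all genes tested. The genes share the same 4 libraries, so their signs do not count separately. The WT mean of Vim was 4184 ± 198 CPM and its Dnmt3l-KO mean 4509 ± 220 CPM (SD, n = 2 each). Cd34, a sialomucin of progenitor and stromal cells, had the smallest p of the list, at 2.93 and 3.40 CPM in WT and 3.99 and 4.50 CPM in Dnmt3l-KO (edgeR, log2 fold change 0.42 ± 0.21, SE, adjusted p = 0.999). Nt5e, the ectonucleotidase CD73, had 13.1 and 15.8 CPM in WT and 8.01 and 13.4 CPM in Dnmt3l-KO.

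Further mesenchymal transcription factors numbered 28 tested genes. In edgeR 0 passed and 1, Snai2, had an unadjusted p below 0.05. Of the 28, 24 had positive and 4 negative log2 fold changes, with a median of 0.14, beside 51.3% positive over all genes tested. These genes share the same 4 libraries too. Over the list, replicate 2 was above replicate 1 by a median log2 difference of 0.18 in WT and 0.28 in Dnmt3l-KO. Snai2 (Slug), a zinc finger repressor of epithelial genes, had 29.5 and 33.4 CPM in WT and 40.8 and 40.7 CPM in Dnmt3l-KO, both Dnmt3l-KO libraries above both WT libraries, as in 16.2% of all genes tested. Its log2 fold change was 0.38 ± 0.11 (SE; edgeR, unadjusted p = 0.0168, adjusted p = 0.999). Snai1, its close relative, had 22.1 and 26.8 CPM in WT and 27.5 and 30.5 CPM in Dnmt3l-KO, and Zeb2, another repressor of the epithelial state, had 87.2 and 81.5 CPM and 102 and 94.5 CPM. The genotypes did not overlap on CPM in these 3 genes, and none passed. On FPKM Snai1 overlapped, with 11.78 and 15.6 in WT and 15.48 and 17.85 in Dnmt3l-KO. Over the list 4 of 28 genes were apart upward and 1 downward on CPM, against 16.2% and 16.5% of all genes tested. Zeb1, the relative of Zeb2, overlapped, with 76.1 and 67.2 CPM in WT and 66.3 and 80.5 CPM in Dnmt3l-KO (log2 fold change 0.04). Scx, the tendon bHLH factor, had 14.7 and 22.5 CPM in WT and 10.5 and 23.0 CPM in Dnmt3l-KO, overlapping ranges.

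The dimer partners and inhibitors of the bHLH factors were all expressed. Of the 7 E-protein and Id genes tested, 0 passed in edgeR (0 at an unadjusted p below 0.05), with a median log2 fold change of 0.0014. Id3, an inhibitor that binds E proteins and lacks a DNA-binding region, was the most abundant at 207 FPKM, with 199 and 269 CPM in WT and 220 and 183 CPM in Dnmt3l-KO. Id1 was at 68.3 FPKM and Id2 at 31.2 FPKM. The E-protein genes Tcf12, Tcf3 and Tcf4 were at 26.5, 18.1 and 14.9 FPKM, close to the FPKM of Twist1 and Twist2.

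Genes that work with the identity markers gave no call either. Of 13 genes of hyaluronan metabolism and of partners of Cd44, 0 passed in edgeR (0 at an unadjusted p below 0.05; median log2 fold change 0.10). Msn (moesin), which links Cd44 to actin, had 1316 and 1169 CPM in WT and 1551 and 1142 CPM in Dnmt3l-KO, and its relative Rdx (radixin) had 176 and 169 CPM and 160 and 156 CPM. Spp1 (osteopontin), a secreted ligand of Cd44, had 365 and 296 CPM in WT and 183 and 452 CPM in Dnmt3l-KO, lowest and highest in the libraries where Thy1 was. Of 10 tested members of the S100 family and partners of S100a4, 0 passed (0 at an unadjusted p below 0.05; median 0.05). S100a6, a relative of S100a4 at 2031 FPKM, had 1716 and 1689 CPM in WT and 1920 and 1097 CPM in Dnmt3l-KO. Like S100a4 it was lowest in Dnmt3l-KO replicate 2, but its Dnmt3l-KO replicate 1 lay above both WT libraries. Myh9, the non-muscle myosin heavy chain that S100a4 binds, had 2258 and 2129 CPM in WT and 2724 and 2379 CPM in Dnmt3l-KO (edgeR, log2 fold change 0.22 ± 0.13, SE, adjusted p = 0.999).

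Of 10 genes listed for the families and pathways of Ddr2 and Fap, 0 passed in edgeR and 1 had an unadjusted p below 0.05. Their median log2 fold change was 0.10. That gene was Dpp9, a cytosolic dipeptidyl peptidase of the family of Fap, at 58.5 and 58.0 CPM in WT and 73.2 and 67.4 CPM in Dnmt3l-KO (log2 fold change 0.27 ± 0.09, SE; edgeR, unadjusted p = 0.0329, adjusted p = 0.999). Ddr1, the collagen receptor related to Ddr2, had 83.3 and 93.9 CPM in WT and 123 and 81.4 CPM in Dnmt3l-KO. The collagen V genes Col5a2 (299 FPKM) and Col5a1 (159 FPKM) and the membrane protease gene Mmp14 (88.0 FPKM) were the most abundant of this list.

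Markers of other cells were low in every library, with exceptions. The 10 leukocyte and macrophage genes found in the table summed to 9.62 and 7.35 CPM in WT and 10.9 and 9.59 CPM in Dnmt3l-KO. Lyz2 (3.76 FPKM), Cd68 (1.59 FPKM) and Tyrobp (0.72 FPKM) were the most abundant of them and had counts in every library. Cd3e and Aif1 were at 0 counts throughout. Thy1 and Cd44 are also carried by T cells, and the defining T-cell gene Cd3e was at 0 in all libraries. Of the 8 endothelial genes, which summed to 8.92 and 10.5 CPM in WT and 20.8 and 6.84 CPM in Dnmt3l-KO, Cldn5 was at 0; Kdr made most of the sum, with 17.5 CPM in Dnmt3l-KO replicate 1. Neurons carry Thy1 as well: the 9 neural and glial genes summed to 70.0 and 58.8 CPM in WT and 69.9 and 67.5 CPM in Dnmt3l-KO, nearly all of it Tubb3 and Stmn2, and Snap25 was at 0. The 10 epithelial genes summed to 46.3 and 54.6 CPM in WT and 55.1 and 41.8 CPM in Dnmt3l-KO, nearly all from Krt19 and Krt18, with Krt5, Krt14 and Esrp1 at 0. The 7 skeletal muscle genes summed to 18.0 and 17.3 CPM in WT and 28.6 and 16.8 CPM in Dnmt3l-KO, most of it Des, and Pax7 was at 0. Thy1 and Fap were lowest in Dnmt3l-KO replicate 1, where the endothelial, muscle and leukocyte sums were highest. The epithelial sum there was close to that of WT replicate 2 (55.1 and 54.6 CPM), and the neural sum close to that of WT replicate 1 (69.9 and 70.0 CPM). The part of other cells in the levels of the 10 genes, and in the differences between libraries, was not tested. In edgeR 0 genes of these 5 lists passed, with 0 at an unadjusted p below 0.05.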

How the data were processed

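RNA was depleted of ribosomal RNA and copied with random primers, per the labels' protocols. Per the submitters' processing notes, TopHat2 2.0.12, Cufflinks 2.2.1, eXpress 1.4.1, DESeq2 1.8.0 and build mm10 were used; the notes do not give their roles. The authors deposited, per the file headers, for each RefSeq transcript and library, an estimated count, whole as deposited, and an FPKM value. Per the file headers, the authors' table also gives per transcript a p-value, a test score, a log2 fold change, its standard error on the log2 scale, and an average signal.

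Counts were summed per gene symbol and tested with edgeR 4.0.16 in R 4.3.3 (robust quasi-likelihood F-test, TMM, edgeR's expression filter, Benjamini-Hochberg adjustment over all genes tested). Standard errors came from the F statistic. Alternatives used limma 3.58.1 and DESeq2 1.42.0. Replicates within a genotype differed beyond sampling noise, at 30.6 (WT) and 91.2 (Dnmt3l-KO) times the chi-square expected. Positions are from RefSeq, GRCm38, the build of mm10; sequences are from RefSeq windows and GENCODE M21, compared with BLAST.

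The 10 genes, the lists and the tests were chosen with earlier results of these data known. From each list the 3 genes with the highest FPKM and the 2 with the smallest p were eligible to be named. Postn, Lrrc15, Lum, Pdgfra, Dcn, Dpt, Dpp4, Zeb1, Tcf3, Tcf4, Tcf12 and the marker genes at 0 counts fall outside it and were chosen with their values known.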

Additional observations from a re-analysis of the deposited data

How the results depend on the processing

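Over 15 alternatives, 0 of the 10 genes was called in any. Of 135 recomputed log2 fold changes, 120 kept their sign and 15 turned it, 13 of these with a library left out; S100a4 (-0.59 to -0.19 with a library left out) and Prrx1 (0.00067 to 0.35) kept theirs in all. With a library left out the others ranged from -0.57 to 0.53 for Thy1, -0.91 to 0.37 for Fap, -0.10 to 0.20 for Ddr2, -0.15 to 0.0819 for Cd44, -0.21 to 0.32 for Prrx2, -0.22 to 0.42 for Twist1 and -0.47 to 0.14 for Twist2, and their median from -0.19 to 0.14. In limma, Cd44 was at 0.0080 on log2(FPKM + 1) and 0.0081 on log2(FPKM + 0.1) values. Leaving out a library leaves 1 in its genotype, assumed to vary like the other group.

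The count of all genes called, 3, was 8 with no filter, 31 in DESeq2, 6 in limma with 1 added to the FPKM and 9 with 0.1 added, and 2 to 6 with a library left out (6 without Dnmt3l-KO replicate 1, 5 without replicate 2). The cause was not tested. With the replicate number as a block, edgeR called 4 genes and 0 of the 10. Same-numbered libraries deviated together with a correlation of 0.13 over all genes, and the labels do not say that a number marks a shared litter or day, so the numbers are not taken to pair the libraries.

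With 2 libraries per genotype the 95% intervals are wide, and for Thy1 and Fap they run from 0.529 to 2.13 and from 0.308 to 2.10 times the WT level. Depth limits Tcf21 and the transcripts of Fap. Strand use, read length and the sharing of reads between transcripts are not given in the sources used here.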
